A study of Mus musculus with 4 samples.

Results

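The genes described here encode proteins that bring fatty acids and lipoproteins into cells and carry fatty acids through the cytosol. They were chosen by symbol, as rows of the deposited array table that the platform annotation ties to exactly 1 gene, and all 10 were found among the 22180 genes measured. They had 15 rows in all, 7 genes with 1 row and 3 with several, and for those 3 the row with the highest mean over the arrays was used. The RNA came from livers of male mice of the inbred strain C57BL/6J, wild-type in both groups. Mice entered the study when 6 weeks old and ate either normal diet (ND) or a diet lacking methionine and choline (MCD) for 20 weeks. Each diet had 2 samples (replicates 1 and 2), each on an array of its own, and the array gave 1 signal per transcript row, read here on a log2 scale. The labels number the samples as mice without saying how they were housed or taken, so p-values measure only the spread between these samples.

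Long-chain fatty acids reach the liver bound to albumin or inside the triglyceride of lipoproteins. Lipases release them from lipoproteins, surface receptors and transport proteins help them across the membrane, and small cytosolic fatty acid binding proteins (FABPs) carry them to sites of storage or oxidation. Hepatocytes and macrophages use different members of these families. Fabp1 and Slc27a2 are known as the hepatocyte forms. Cd36, Msr1, Lpl, Fabp4 and Fabp5 are counted here as macrophage forms. Of these, Cd36, Lpl, Fabp4 and Fabp5 are also made by adipocytes, muscle or endothelial cells. The names are labels only, since the cells that made these transcripts in these livers, hepatocytes or others, were not identified. Vldlr, Fabp2 and Slc27a4 were put in neither group. Mice kept on MCD diet are a common model of inflamed fatty liver.

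In livers of the MCD diet the lipase Lpl, the receptors Cd36 and Vldlr and the binding proteins Fabp4 and Fabp5 rose, and the hepatocyte binding protein Fabp1 fell. Lpl rose most, by 4.01 ± 0.29 on the log2 scale (± is the standard error of the difference, n = 2 arrays per diet), and Fabp1 fell by 1.75 ± 0.21. Of the 10 genes 5 passed the test upward, 1 downward and 4 in neither direction, in limma's moderated test with Benjamini-Hochberg adjustment over all genes and a threshold of 0.05. Among all genes tested 6.37% passed upward, 3.62% downward and 9.98% in either direction. The median difference over the 10 genes was 1.21, against -0.03 over all genes. For 10 of the 10 genes both arrays of 1 diet lay above both of the other diet, a condition met by 54.2% of all genes. Each of the 6 genes that passed changed at least 2-fold.

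**Figure D1:**
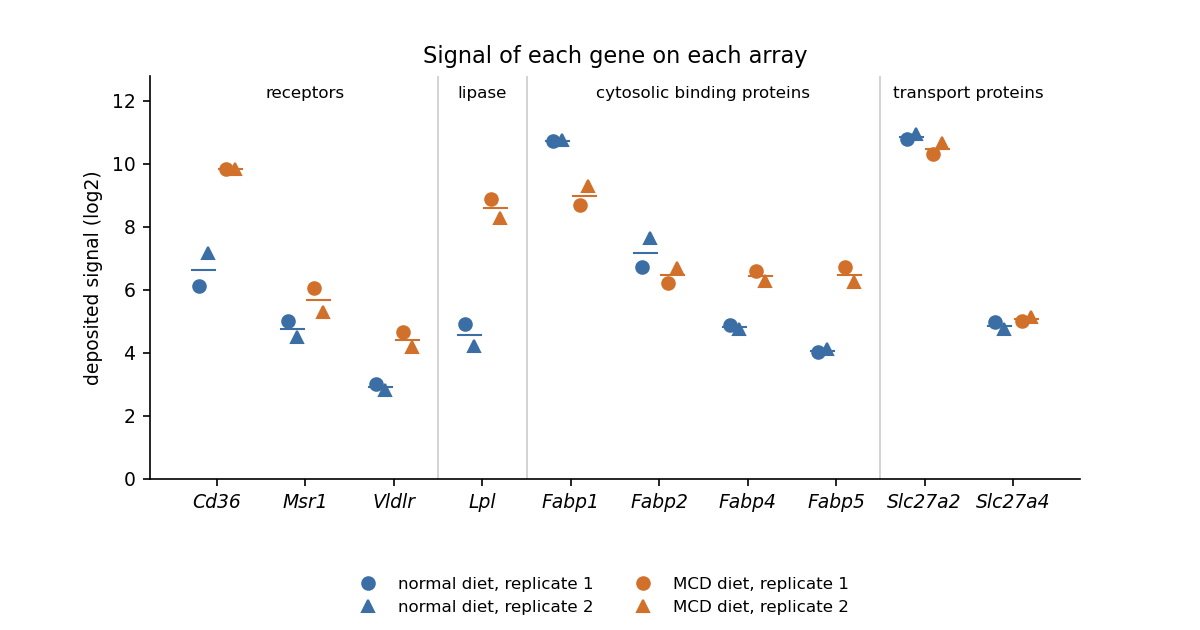
Deposited log2 signal (vertical axis) of each of the 10 genes (horizontal axis, grouped by role) on the 4 arrays; colours mark the diet, symbols the replicate, and short lines the mean of the 2 arrays of a diet. The MCD diet points of Cd36 and Lpl lie well above the normal diet points, those of Fabp1 lie below, and those of Fabp2, Slc27a2 and Slc27a4 lie close to them.

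The arrays matched their label as liver. Of 12 hepatocyte markers 12 lay above the median signal of all genes in normal diet livers, and albumin, Alb, had signals from 11.93 to 12.04 on the 4 arrays. The arrays' medians over genes ran from 2.96 to 3.05, and the SD across genes of the difference between arrays was 0.267 between the normal diet arrays and 0.274 between those of the MCD diet. With so few arrays precision is limited, and signal over background was not analysed here. In bulk tissue a change in the number of cells of a type and a change in the RNA of each cell cannot be told apart.

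Cd36 encodes the scavenger receptor and fatty acid translocase of macrophages, adipocytes and muscle. Its signals were 6.11 and 7.17 in normal diet livers and 9.84 and 9.83 in MCD diet livers. The MCD diet arrays were almost equal and both far above the normal diet arrays, which lay more than 1 unit apart. Cd36 rose by 3.19 ± 0.33 (9.16-fold; 95% interval of the log2 difference 2.40 to 3.99; limma adjusted p = 0.00368). The size leaned on which normal diet array was used, at 2.67 without normal diet replicate 1 and 3.72 without normal diet replicate 2.

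Transcription of Cd36 is known to respond to peroxisome proliferator-activated receptors (PPARs), which bind with RXR to direct repeats of the letters AGGTCA, and so is that of Fabp1. Promoter sequence is shown for these genes because they moved in opposite directions. RefSeq promoter windows of build GRCm38.p6 were at hand for 6 of the 10 genes (Cd36, Vldlr, Fabp1, Fabp2, Slc27a2 and Slc27a4), and the 250 bases before each start site were searched on both strands. The Cd36 stretch below is chr5:17835897-17836146, minus strand, and ends at the base before the start site. Capitals mark AGGTCA on the opposite strand, which reads TGACCT here, and CCAAT, the letters of the box bound by the general factor NF-Y.
Cd36 promoter: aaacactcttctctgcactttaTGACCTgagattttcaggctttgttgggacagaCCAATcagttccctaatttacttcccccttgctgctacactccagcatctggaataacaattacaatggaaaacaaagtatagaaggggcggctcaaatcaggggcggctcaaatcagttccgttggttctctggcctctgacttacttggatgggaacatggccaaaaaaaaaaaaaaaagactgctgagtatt
The letters AGGTCA lay 228 to 223 bases before the start of Cd36, and CCAAT 195 to 191 bases before it. AGGTCA was found in 14% and CCAAT in 33.8% of the 32851 promoter windows of that length, so both are common. The repeat AGGTCANAGGTCA was found in the window of 0 of the 6 genes and in 0.0335% of all windows.

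Msr1 encodes the class A scavenger receptor, which takes up modified lipoproteins and is largely restricted to macrophages. Its signals were 5.0 and 4.50 in normal diet livers against 6.04 and 5.29 in MCD diet livers. The groups did not overlap, but the lower MCD diet array stood close to the higher normal diet array. The difference was 0.91 ± 0.28 (1.88-fold; 95% interval 0.22 to 1.61) and did not pass the test (limma adjusted p = 0.11). It was 0.54 without MCD diet replicate 1 and 1.29 without MCD diet replicate 2, where it passed (limma adjusted p = 0.0471). Msr1 was thus the one macrophage form of 5 whose call depended on which array was left out.

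Vldlr encodes a receptor that binds lipoproteins rich in triglyceride and works together with lipoprotein lipase. Normal diet signals were 3.02 and 2.80, near the median of all genes, and MCD diet signals were 4.66 and 4.17. Both MCD diet arrays stood clear of the normal diet arrays. Vldlr rose by 1.50 ± 0.19 (2.84-fold; 95% interval 1.03 to 1.97; limma adjusted p = 0.00737). Because the normal diet signal was dim and signal over background was not analysed, the size of this rise is uncertain.

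Lpl encodes lipoprotein lipase, which frees fatty acids from circulating triglyceride and is low in the hepatocytes of adult mice. Its signals were 4.92 and 4.23 in normal diet livers and 8.88 and 8.28 in MCD diet livers. The rise to the MCD diet arrays was several times the gap between arrays of a diet. Lpl rose 16.1-fold (95% interval of the log2 difference 3.30 to 4.71; limma adjusted p = 0.0013), which placed it at rank 14 among all 22180 genes ordered by difference. A dimmer row of Lpl, with signals of 1.87 and 1.80 on normal diet and 2.82 and 2.23 on MCD diet, differed by 0.69 ± 0.21 and did not pass among all rows tested (limma adjusted p = 0.135). With the mean of the rows taken, the rise was 2.35 and passed (limma adjusted p = 0.00327).

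Fabp1 encodes the liver fatty acid binding protein, an abundant cytosolic protein of hepatocytes. Its signals were 10.71 and 10.75 in normal diet livers and 8.68 and 9.28 in MCD diet livers. The normal diet arrays were nearly equal, and both MCD diet arrays stood more than 1 unit below them. Fabp1 fell by 1.75 ± 0.21 (3.36-fold lower; limma adjusted p = 0.00571), with a 95% interval of the difference from -2.26 to -1.24. This was the only one of the 10 genes to pass the test downward. Of the 2 hepatocyte forms, then, only Fabp1 passed. The stretch below is chr6:71199759-71199878, plus strand, from RefSeq's GRCm38.p6 promoter table, and ends at the base before the start site. Capitals mark a repeat of AGGNCA with a spacer of a single base on the opposite strand, the TATA box letters TATAAA and a further AGGTCA on the opposite strand.
Fabp1 promoter: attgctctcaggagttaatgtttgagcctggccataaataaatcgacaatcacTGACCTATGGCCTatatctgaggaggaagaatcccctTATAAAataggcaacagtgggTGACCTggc
The repeat AGGNCANAGGNCA lay 67 to 55 bases before the start site and begins, read on the gene strand, with the TGACCT that was also counted as AGGTCA. It was found in 0.338% of all windows and in that of 1 of the 6 genes searched. TATAAA lay 30 to 25 bases before the start and was found in 12.4% of all windows, and the other AGGTCA lay 9 to 4 bases before it. These are matches of letters, and no binding was measured.

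Fabp2 encodes the intestinal fatty acid binding protein, best known from enterocytes. Signals were 6.71 and 7.65 on normal diet and 6.23 and 6.70 on MCD diet. The groups were almost in contact, and the normal diet arrays differed from each other by more than the means of the diets. The difference of -0.72 ± 0.32 (95% interval -1.51 to 0.07) did not pass (limma adjusted p = 0.248). It ranged from -0.24 without normal diet replicate 2 to -1.19 without normal diet replicate 1. Of the enterocyte markers, the brush border enzymes Alpi, Lct and Sis lay under the median of all genes, with signals of at most 2.79 on all 4 arrays. They were picked after their values were seen. Of the 12 markers 3, Apoa4, Anpep and Mttp, lay above that median in normal diet livers, and 3 rose, as given below. Whether intestinal tissue had a part in the Fabp2 signal was not tested.

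Fabp4 encodes the adipocyte and macrophage fatty acid binding protein, also called aP2, which capillary endothelium makes as well. Its signals were 4.87 and 4.75 in normal diet livers and 6.58 and 6.29 in MCD diet livers. Arrays of 1 diet lay within 0.3 units of each other. Fabp4 rose by 1.63 ± 0.15 (3.09-fold; 95% interval 1.27 to 1.99; limma adjusted p = 0.00261). Its standard error was the second smallest of the 10 genes.

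Fabp5 encodes the epidermal fatty acid binding protein, which macrophages share with keratinocytes and endothelium. On the row used, signals were 4.01 and 4.12 on normal diet and 6.73 and 6.24 on MCD diet, with no overlap. Fabp5 rose by 2.42 ± 0.19 (5.35-fold; 95% interval 1.97 to 2.88; limma adjusted p = 0.00158). The gene had 4 rows, and they did not move alike. Among all rows tested, the next brightest by mean rose by 2.39 ± 0.20 and another by 1.52 ± 0.16. The dimmest row, at 1.92 to 2.09 on all arrays, differed by 0.03 ± 0.12. The mean of the 4 rows rose by 1.59 (limma adjusted p = 0.00327). Fabp5 has processed copies elsewhere in the mouse genome, so its rows may share signal with them and the size of its rise is uncertain.

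Fabp4 and Fabp5 are neighbours on mouse chromosome 3, in a cluster that also holds Pmp2, Fabp9 and Fabp12. These other genes, named here for their position, did not pass the test. Pmp2, the binding protein of myelin, differed by 0.09 ± 0.24. Fabp9 differed by -0.26 ± 0.13 and Fabp12 by 0.03 ± 0.13. The signals of all 3 were below 2.7 on every array, so a change in them may not have been measurable.

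Slc27a2 encodes fatty acid transport protein 2 (FATP2), a membrane protein of hepatocytes that also activates very long-chain fatty acids to their CoA esters. Its signals were 10.77 and 10.94 on normal diet and 10.30 and 10.66 on MCD diet. The MCD diet arrays were lower, but the nearest arrays of the diets lay closer together than the arrays of either diet. The difference of -0.38 ± 0.16 (1.30-fold lower; 95% interval -0.78 to 0.02) did not pass (limma adjusted p = 0.231). It was -0.19 without MCD diet replicate 1 and -0.56 without MCD diet replicate 2. A second, dim row of Slc27a2, with signals of 3.24 and 3.19 on normal diet and 2.53 and 2.50 on MCD diet, fell by 0.70 ± 0.11 among all rows tested (limma adjusted p = 0.0258). Thus the rows of Slc27a2 gave the same direction but only the dim one passed.

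Slc27a4 encodes the related transport protein FATP4, which is widely expressed and prominent in enterocytes. Signals were 4.97 and 4.75 in normal diet livers and 5.01 and 5.12 in MCD diet livers. The higher normal diet array lay just under the lower MCD diet array. The difference was 0.20 ± 0.14 (95% interval -0.13 to 0.54; limma adjusted p = 0.431), which leaves room for a rise of up to 1.45-fold. It ranged from 0.09 without normal diet replicate 2 to 0.31 without normal diet replicate 1.

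**Figure D2:**
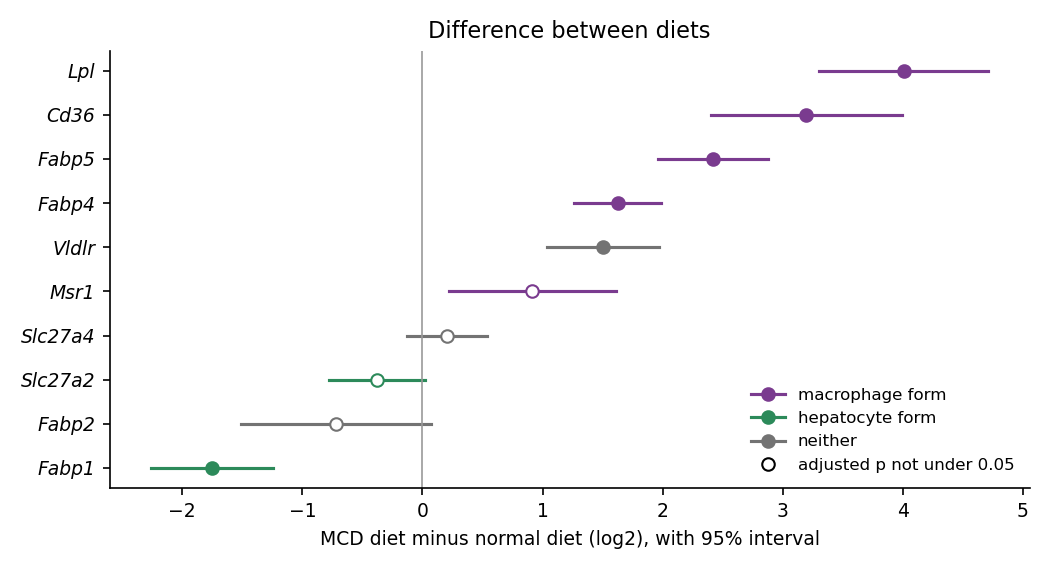
Difference between MCD diet and normal diet on the log2 scale (horizontal axis) for each gene, with its 95% interval from limma; colours mark the macrophage forms, the hepatocyte forms and the genes put in neither group, and open points did not pass an adjusted p of 0.05. Lpl is highest at 4.01 and Fabp1 lowest at -1.75, and the 5 macrophage forms lie to the right of both hepatocyte forms.

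Set side by side, the macrophage forms were higher and the hepatocyte forms lower or not called in MCD diet livers. Of the 5 macrophage forms 4 rose and Msr1 did not pass, and their mean difference was 2.43 (5.40-fold). Of the 2 hepatocyte forms Fabp1 fell and Slc27a2 did not pass, and their mean difference was -1.06 (2.09-fold lower). Per array, the macrophage forms stood 2.65 and 2.22 above the normal diet mean in MCD diet replicates 1 and 2, and the hepatocyte forms 1.30 and 0.82 below it. The normal diet arrays lay 0.01 from that mean for the macrophage forms and 0.05 from it for the hepatocyte forms. The macrophage forms thus exceeded the hepatocyte forms in their change by 3.95 and 3.04 on the MCD diet arrays, a mean of 3.50. With Fabp2 and Slc27a4 counted as hepatocyte forms and Vldlr as a macrophage form the mean was 2.94. These are descriptions, since the genes were picked with their changes known, and an exact permutation of 2 against 2 arrays cannot give a two-sided p under 0.333.

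Markers of macrophages moved with the macrophage forms. Of 16 measured macrophage markers 14 rose and 0 fell, with a median difference of 2.08. Their mean signal was 4.01 to 4.06 on normal diet and 6.29 to 6.75 on MCD diet. The glycoprotein Gpnmb rose by 7.33 ± 0.20, the metalloproteinase Mmp12 by 5.59 ± 0.27, the lipid receptor Trem2 by 3.47 ± 0.22 and the lysosomal protein Cd68 by 3.43 ± 0.24. The defining marker Adgre1 (F4/80) differed by 1.09 ± 0.29 and, like Msr1, did not pass (limma adjusted p = 0.0748), with 0.62 without MCD diet replicate 1 and 1.55, which passed, without MCD diet replicate 2. It also passed with the replicate block and under the unadjusted 2-fold rule. The part that more macrophages, or more of these transcripts per macrophage, had in the rises of Cd36, Lpl, Fabp4 and Fabp5 was not tested. In normal diet livers 10 of the 16 lay above the median of all genes.

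The MCD diet arrays differed in the same way for both sets. All 5 macrophage forms, and 13 of the 16 macrophage markers, were higher on MCD diet replicate 1 than on replicate 2, as were 47.6% of all genes. The gap was 0.75 for Msr1, 0.60 for Lpl and 0.50 for Fabp5, and 0.01 for Cd36. Both hepatocyte forms were lower on MCD diet replicate 1, Fabp1 by 0.60 and Slc27a2 by 0.37. Hepatocyte markers went the other way in part, with 7 of 12 higher on MCD diet replicate 1. Between the normal diet arrays 12 of the 16 macrophage markers and 3 of the 5 macrophage forms were higher on replicate 1. So were 11058 of all 22180 genes. Cd36 was instead higher on normal diet replicate 2, by 1.06.

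**Figure D3:**
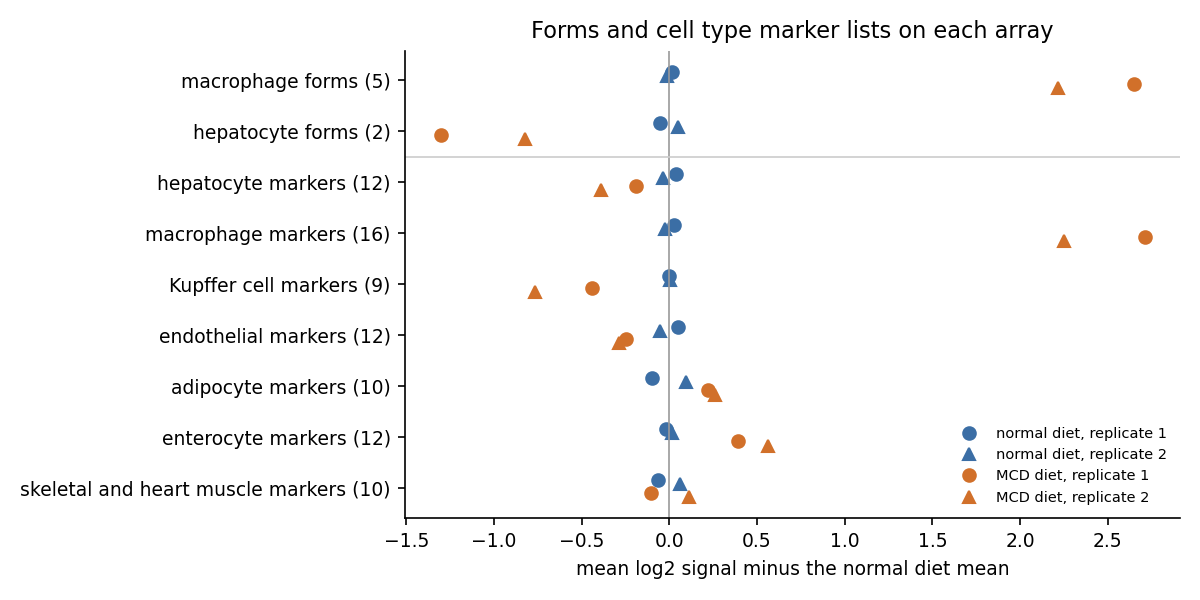
Mean log2 signal minus the mean of the normal diet arrays (horizontal axis) for the macrophage and hepatocyte forms and for 7 lists of cell type markers, with the number of genes in brackets; each point is 1 array, colours mark the diet and symbols the replicate. The macrophage forms and the macrophage markers lie above 2 on both MCD diet arrays, the hepatocyte forms lie below -0.8, and the other lists lie nearer to 0.

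Kupffer cells are the resident macrophages of the liver, and of 9 of their markers 4 fell and 0 rose, with a median of -0.71 and mean signals of 5.45 to 5.46 on normal diet and 4.69 to 5.01 on MCD diet. The lectin Clec4f fell by 1.66 ± 0.19, Cd163 by 2.06 ± 0.13 and Fcna by 1.20 ± 0.14. Timd4, a receptor for dying cells, fell by 0.89 ± 0.16, a call lost without MCD diet replicate 1 or either array of the normal diet (range -1.09 to -0.69). Of the 9 markers 3 had positive differences, none of which passed. They were Vsig4 (0.64 ± 0.37), Slc40a1 (0.62 ± 0.21) and Marco (0.32 ± 0.21). Vsig4 and Cd5l were lower on MCD diet replicate 2 than on replicate 1, by 1.23 and 1.30. The list was thus mixed, although the medians of the Kupffer cell list and the macrophage list had opposite signs.

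Endothelial cells make Fabp4, Fabp5 and Cd36. Of 12 endothelial markers 2 fell and 0 rose, with a median of -0.25 and mean signals of 5.39 to 5.50 on normal diet and 5.16 to 5.20 on MCD diet. Among all genes tested 3.62% fell. Of the 12 markers 2, Pecam1 and Vwf, had positive differences, and neither passed. That of Vwf was 0.45 ± 0.13 (limma adjusted p = 0.0864). The adhesion molecule Pecam1 differed by 0.10 ± 0.14, and by -0.01 to 0.20 with 1 array left out. The receptors Kdr and Stab2 fell by 0.76 ± 0.13 and 0.82 ± 0.15. Leaving out MCD diet replicate 1 ended both calls, and so did leaving out normal diet replicate 1. The call of Kdr was also lost without normal diet replicate 2, and that of Stab2 when MCD diet replicate 2 was dropped. Over all 4 arrays left out in turn the differences ran from -0.86 to -0.67 for Kdr and from -0.99 to -0.65 for Stab2.

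Adipocytes make Lpl, Cd36 and Fabp4 in quantity, and adipose tissue can adhere to a liver sample. Of 10 measured adipocyte markers 2 rose and 0 fell, with a median of -0.21 and mean signals of 3.68 to 3.88 on normal diet and 4.0 to 4.04 on MCD diet. The lowest difference was that of Pck1, at -1.49 ± 0.37, which did not pass (limma adjusted p = 0.0586). Its normal diet signals of 10.87 and 11.01 lay far above the mean of the list, so that mean leans on it. Retn (0.25 ± 0.14) and Cidea (0.28 ± 0.12) had positive differences that did not pass. The defining marker Adipoq, which encodes adiponectin, was at 2.31 and 2.07 on normal diet and 1.84 and 1.87 on MCD diet, below the median of all genes on every array. The 2 that rose were the lipid droplet proteins Cidec (3.75 ± 0.35) and Plin4 (1.34 ± 0.24), which hepatocytes with much fat are known to make as well. The call of Plin4 was lost without either MCD diet array (range 0.99 to 1.69). Whether adipose tissue had a part in the signals of Lpl, Cd36 and Fabp4 was not tested.

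Among 12 hepatocyte markers 0 rose and 2 fell, with a median of -0.10 and mean signals of 10.79 to 10.86 on normal diet and 10.44 to 10.64 on MCD diet. Alb differed by -0.04 ± 0.12. The lowest difference of the list was that of G6pc, at -1.65 ± 0.73, which did not pass (limma adjusted p = 0.241). Its signals were 10.53 and 9.89 on normal diet and 9.78 and 7.34 on MCD diet. The apolipoprotein Apoa1 fell by 0.50 ± 0.12, a call lost without any 1 of the 4 arrays (range -0.53 to -0.48), and Serpina1a by 1.06 ± 0.23, a call lost without MCD diet replicate 1 or either array of the normal diet (range -1.40 to -0.72), and its probes may share signal with close family members. Of 12 enterocyte markers 3 rose and 0 fell (median 0.06, mean signals 3.72 to 3.75 on normal diet and 4.13 to 4.30 on MCD diet). They were Apoa4 (2.33 ± 0.22), which the mouse liver also makes, the glucose transporter Slc5a1 (1.59 ± 0.23), whose call was lost without MCD diet replicate 2 at 1.50, and the peptidase Anpep (0.60 ± 0.14), whose call was lost without any 1 array (range 0.49 to 0.72). Vil1, which encodes villin, differed by 1.16 ± 0.28 and did not pass (limma adjusted p = 0.057). It passed with an intensity trend, after quantile normalization, with the dimmest 25% of genes left out, under the unadjusted 2-fold rule and, at 1.60, without MCD diet replicate 1, and was 0.72 without MCD diet replicate 2. Of 10 skeletal and heart muscle markers 0 passed limma's test and 3 had an unadjusted p under 0.05 (median -0.10). The muscle creatine kinase Ckm differed by -0.55 ± 0.14 at signals of at most 2.98. It passed under quantile normalization and median centring (limma adjusted p = 0.0425 and 0.0374), and was -0.31 with the mean of its rows. Tnnt2 (0.66 ± 0.15) passed without dim genes and with the mean of rows, and Actc1 (0.63 ± 0.22) passed without MCD diet replicate 1.

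Beyond the 10 genes, the wider set of uptake and binding genes showed no common direction. Of 77 genes on 5 lists 69 were measured, and 9 of them rose and 9 fell, with a median of -0.08. Among all genes tested 6.37% rose and 3.62% fell. Among the other binding proteins 0 of 11 rose and 1 fell, with a median of -0.08. Scp2, the sterol carrier protein of peroxisomes, fell by 0.88 ± 0.16 from signals of 11.01 and 11.04 to 9.95 and 10.34, a call lost without MCD diet replicate 1 or either array of the normal diet (range -1.07 to -0.68). Heart-type Fabp3 differed by -0.11 ± 0.13. Brain-type Fabp7 had signals of 4.39 and 4.22 on normal diet and 6.04 and 4.98 on MCD diet, and its difference of 1.21 ± 0.33 did not pass (limma adjusted p = 0.0776). It was 0.68 without MCD diet replicate 1 and 1.74, which passed, without MCD diet replicate 2, and it also passed with the replicate block and under the unadjusted 2-fold rule.

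The other transport proteins and acyl-CoA synthetases, which trap fatty acids in the cell as CoA esters, split by gene. Of 10 measured 2 rose and 2 fell, with a median of 0.12. Slc27a5, the hepatocyte transport protein FATP5 that also activates bile acids for conjugation, fell by 2.05 ± 0.12 (4.15-fold lower; limma adjusted p = 0.00064), with signals of 9.19 and 9.11 on normal diet and 7.09 and 7.10 on MCD diet. Slc27a1, the transport protein FATP1 of muscle and fat, rose by 1.39 ± 0.17 (2.62-fold; limma adjusted p = 0.00598) from signals of 3.39 and 3.02 to 4.70 and 4.49. Acsl5, a synthetase of liver and intestine, fell by 1.15 ± 0.17, a call lost without MCD diet replicate 1 at -1.13. Acsl4, which prefers arachidonic acid, rose by 1.11 ± 0.24, a call lost without MCD diet replicate 1 or normal diet replicate 2 (range 0.85 to 1.36). Acsl1 was not analysed here.

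Proteins that serve or restrain lipoprotein lipase did not follow Lpl as a group. Of 13 measured partners and other lipases 1 rose and 1 fell, with a median of -0.19. Lmf1, which helps the lipase to fold, fell by 1.05 ± 0.12 (limma adjusted p = 0.00568), from signals of 7.37 and 7.51 to 6.43 and 6.34. Angptl8, which takes part in inhibiting the lipase, rose by 1.25 ± 0.21 (limma adjusted p = 0.0175), a call lost without either MCD diet array (range 0.98 to 1.52). The inhibitor Angptl4 differed by 0.12 ± 0.24, and the sign turned when MCD diet replicate 1 (-0.12) or normal diet replicate 1 (-0.17) was dropped. Gpihbp1, which anchors the lipase to capillary endothelium, differed by -0.28 ± 0.13 (limma adjusted p = 0.268), with signals of 4.91 and 4.74 on normal diet and 4.62 and 4.48 on MCD diet.

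**Figure D4:**
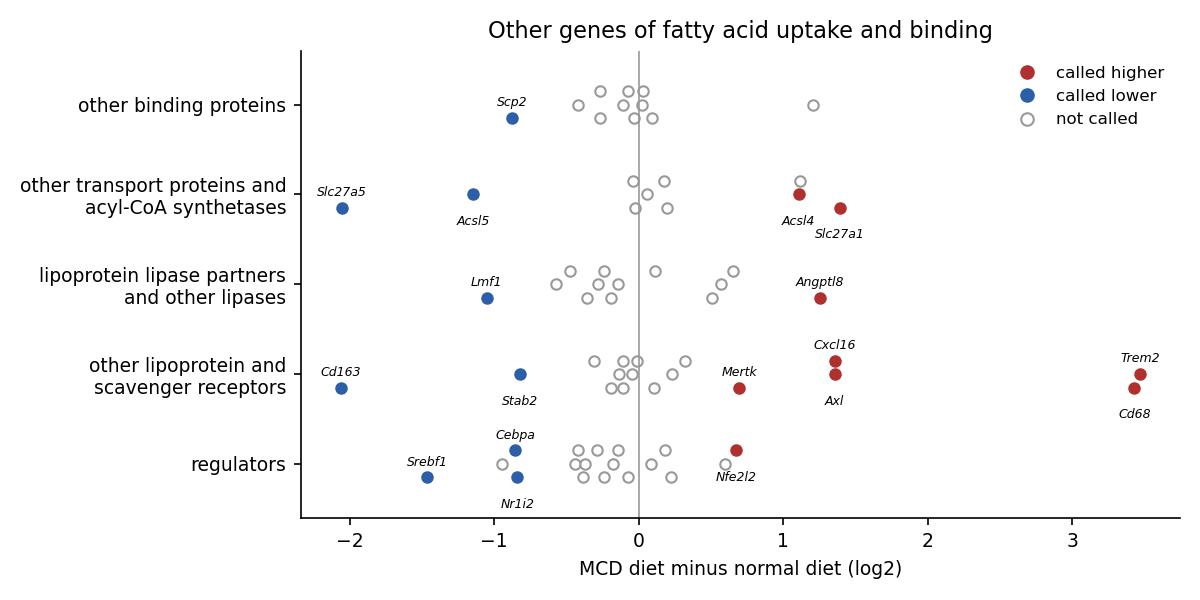
Difference between MCD diet and normal diet on the log2 scale (horizontal axis) for each measured gene of the 5 lists (vertical axis); filled points passed an adjusted p of 0.05 in limma and carry the gene's name, open points did not. The called genes of each list other than the binding proteins fall on both sides of 0.

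Other receptors for lipoproteins and modified lipids went both ways. Of 17 measured 5 rose and 2 fell, with a median of -0.01. Trem2 and Cd68, which are on the macrophage list too, rose as given above. The chemokine and scavenger receptor Cxcl16 rose by 1.36 ± 0.21, a call that needed both MCD diet replicate 1 and normal diet replicate 2 (range 1.14 to 1.57). The receptor Axl, which helps to clear dying cells, rose by 1.36 ± 0.17. Cd163, the haemoglobin receptor of resident macrophages, and the endothelial receptor Stab2 were the members that fell.

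Of 18 measured regulators of uptake genes 1 rose and 3 fell, with a median of -0.26. Pparg, the receptor that drives Cd36, Lpl and Fabp4 in fat cells and macrophages, had signals of 4.85 and 4.48 on normal diet and 5.15 and 5.37 on MCD diet. Its difference of 0.60 ± 0.17 did not pass (limma adjusted p = 0.0855). Ppara, the receptor that drives fatty acid use in hepatocytes, differed by -0.29 ± 0.21 (limma adjusted p = 0.482), and by -0.60 to 0.02 with 1 array left out. The sterol regulator Srebf1 fell by 1.46 ± 0.29, Cebpa by 0.86 ± 0.15 and the xenobiotic receptor Nr1i2, which can activate Cd36, by 0.84 ± 0.17. Nfe2l2, a regulator of antioxidant genes, rose by 0.67 ± 0.13. Each of these 4 calls was lost without at least 3 of the 4 arrays in turn. For Srebf1 these were normal diet replicate 1 and either MCD diet array (range -1.83 to -1.09). For Cebpa they were either normal diet array and MCD diet replicate 2 (range -1.01 to -0.70). For Nr1i2 they were normal diet replicate 2 and either MCD diet array (range -1.05 to -0.63), and for Nfe2l2 any of the 4 (range 0.61 to 0.74).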

How the data were processed

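Total RNA of mouse liver was turned into biotin-labelled cDNA and read on 4 arrays, per the labels' protocols. Per the submitters' processing notes, the authors used Transcriptome Analysis Console to make the deposited log2 signals; how background, probes and arrays were treated is not given in the sources used here. From the range of values, the log base was inferred to be 2, and every fold rests on it. Of 34472 rows, 23521 named exactly 1 gene, 1814 several and 9137 none, and only the first were used, 1 row per gene (22180 genes). No column of sample values was left unused. Signals were tested as deposited with limma 3.58.1 in R 4.3.3 (lmFit and eBayes, two-sided, all 4 arrays, no block), with 2 residual degrees of freedom raised to 6.06 by moderation. As a check of the code, 20 data sets of 22180 genes were simulated. Values were independent and normal, with spreads drawn from limma's own fitted model, and 200 genes were changed, all upward. There limma recovered 46.5% of changes of 1 log2 unit and 96.7% of changes of 2, and 5.38% of calls were false. A false share near the threshold is built into such data. The real data gave 2214 calls in both directions, so these rates need not hold for them. The alternatives were quantile normalization, median centring, leaving out dim genes, an intensity trend, other ways to treat a gene's rows, an unadjusted threshold, a replicate block and leaving out each array. The genes, lists and tests were chosen with earlier results of these data known. Genes named were the 10 members, preset genes of interest, and called genes by size of difference. The last were limited to 6 per pathway list and 4 per marker list. Pmp2, Fabp9, Fabp12, Alpi, Lct, Sis, Mttp, Vsig4, Slc40a1, Marco, Cd5l and G6pc were named after their values were seen. So were Pck1, Retn, Cidea and Vwf and, in the closing section, Mfsd2a, Lipg, Sort1 and Ppargc1a. No coordinates other than those of printed promoters are given, as rows were matched by symbol.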

Additional observations from a re-analysis of the deposited data

How the results depend on the processing

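Across the 13 alternatives run for each of the 10 genes, direction held in all 130 values, but this was largely fixed in advance. Settings that change only the test, the threshold or the genes tested leave the difference as it was. Leaving out 1 array cannot turn the sign of a gene whose diets do not overlap, as for all 10. The side of the threshold held in 128 of the 130 values. The other 2 were those of Msr1, whose difference of 0.91 passed with the replicate number as a block (limma adjusted p = 0.0229; range over its alternatives 0.0229 to 0.359) and, at 1.29, without MCD diet replicate 2. The count of the 10 that rose was 5 to 6 and of those that fell 1 under every alternative. Of the 69 pathway genes 9 rose and 9 fell, against 4 to 8 and 5 to 6 with 1 array left out, and 5 fell by the rule of a raw p below 0.05 and a 2-fold change. After quantile normalization 11 of the pathway genes rose and 13 fell. The difference between macrophage and hepatocyte forms was 3.50, and 3.04 to 3.95 with 1 array left out. The ends of that range are the values of the single MCD diet arrays given above, so it is no further check. With the wider groups the difference was 2.94, a shift larger than the spread between arrays of a diet (SD 0.46). Over all genes 2214 passed, against 1050 to 1493 with 1 array left out and 1155 by that rule. The labels number the samples without saying that a number joins them across diets. Deviations from the group means correlated at 0.05 across genes between same-numbered samples, and the block gave 1950 calls over all genes, 6 higher and 1 lower among the 10, and 9 higher and 9 lower among the pathway genes. Of 567 values of 44 other named genes under alternatives, 484 kept their side of the threshold, 66 lost a call, 17 gained one and 0 changed sign with a call. Median centring moved the median of all genes by -0.07. Leaving out 1 array leaves a lone sample, which is assumed to vary like the other group. Signal over background was not analysed, so folds from dim signals are uncertain.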

Other observations

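The normal diet arrays differed from each other in some of the genes of fatty acid uptake. Cd36 was higher by 1.06 and Fabp2 by 0.95 on normal diet replicate 2 than on replicate 1. Gaps as large as that of Fabp2 in this direction were found for 0.325% of all genes. Among the listed genes, picked after their values were seen, the lysolipid transporter Mfsd2a was higher on replicate 2 by 1.20, the endothelial lipase Lipg by 1.12 and the lipid droplet protein Cidec by 0.97, while Sort1, Ppargc1a and Srebf1 were lower there by 1.08, 0.88 and 0.74. At a gap of 0.7, chosen after these values were seen, 4 of the 142 listed genes measured were higher there, with Plin4 (0.70) as the fourth, and 3 were lower. The share of all genes with gaps of that size was not counted, so these counts cannot be called high or low. Lpl and Msr1 went the other way, lower on normal diet replicate 2 by 0.69 and 0.50, while Fabp1, Fabp4 and Fabp5 differed by at most 0.12 between these arrays. The labels give no difference between these samples.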
